A study of Mus musculus with 10 samples.

Results

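The major histocompatibility complex (MHC) genes of the mouse, with the genes that load and regulate their products, were examined in Treg cells with or without the TIR1(F74G) degrader of Foxp3. Members were taken as all gene rows whose name starts with H2-, plus B2m, Tap1, Tap2, Tapbp, Tapbpl, Nlrc5, Ciita, Erap1, Calr, Canx and Pdia3, which gave 56 of 55809 gene rows. Of these, 45 were H2- genes and 48 lay on chromosome 17. A mean count of at least 10 was reached by 38 members, which were tested among 16363 genes, 18 members fell under it, and 9 of the 18 had a count of 0 in every library. The rule used names alone and no measured value, but the members were chosen with earlier results of these data known.

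Bulk RNA-seq libraries were made from Treg cells of spleen and lymph nodes of Foxp3-AID mice, in which an auxin-inducible degron is joined to Foxp3 at its own locus. The 4 R26-WT libraries came from Foxp3-AID ROSA26-WT mice, which lack TIR1 and keep the fusion protein, and the 6 R26-TIR1(F74G) libraries from Foxp3-AID ROSA26-TIR1(F74G) mice, in which the plant E3 ligase subunit TIR1(F74G) marks it for degradation. All mice of both groups carried the Foxp3-AID allele and were given the auxin analog 5-ph-IAA, on which the degradation depends, for 14 days. Library names number the mice, the file headers name males, and the study treated both newborn and adult males of these genotypes for this period, while the labels do not say which these were. Per the study's methods, TIR1(F74G) is expressed from ROSA26 only after a Cre encoded by the Foxp3-AID allele removes a stop cassette, so the ligase is made in cells that express Foxp3 or had done so. That allele was made in 129/B6 F1 hybrid embryonic stem cells and backcrossed to C57BL/6. The TIR1 allele was made in albino C57BL/6 embryonic stem cells, and its F74G form by CRISPR editing of zygotes that carried it. Libraries are numbered 1 to 4 in R26-WT and 5 to 10 in R26-TIR1(F74G), and values are listed in that order. The study's methods describe sorting Treg cells, after enrichment for CD4+ T cells, as CD4+ TCRβ+ ZsGreen+ from R26-WT mice and also as mCherry+ from R26-TIR1(F74G) mice, ZsGreen reporting Foxp3 and mCherry the TIR1 allele. The labels name no gate for these libraries, and where that scheme was used, gate and genotype cannot be told apart. Libraries held 24158699 to 54795718 counted read pairs, and the members took 2.97% ± 0.41 (SD, n = 4) of them in R26-WT and 2.80% ± 0.30 (SD, n = 6) in R26-TIR1(F74G).

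MHC class I molecules present peptides from the cytosol to CD8+ T cells on nearly all cells: classical H2-K and H2-D chains pair with β2-microglobulin (B2m), and TAP, tapasin and their helpers supply the peptide in the endoplasmic reticulum. Class II molecules present peptides from endosomes to CD4+ T cells, mainly on B cells, dendritic cells and macrophages, where H2-DM exchanges the invariant chain fragment for peptide and H2-O restrains H2-DM. Mouse T cells make little or no classical class II, whose transcription needs CIITA, acting with factors bound to paired X and Y boxes of the promoters. NLRC5 plays the matching part for class I.

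Promoters of 5 class II members are shown because H2-DMb2, H2-DMb1 and H2-Oa differed between the groups while H2-Ob and H2-Eb1 were not called. RefSeq's promoter table (build GRCm38.p6, 32851 promoters) listed 39 of the 56 members, and the 250 bases before the start were read on the gene's strand. All 5 printed regions run 5′ to 3′ on the plus strand, at chr17:34092129-34092378 for H2-Oa, chr17:34144999-34145248 for H2-DMb2, chr17:34152941-34153190 for H2-DMb1, chr17:34238655-34238904 for H2-Ob and chr17:34305617-34305866 for H2-Eb1. Capitals mark the Y box core TGATTGG and the X box core ATGATG.
H2-Oa: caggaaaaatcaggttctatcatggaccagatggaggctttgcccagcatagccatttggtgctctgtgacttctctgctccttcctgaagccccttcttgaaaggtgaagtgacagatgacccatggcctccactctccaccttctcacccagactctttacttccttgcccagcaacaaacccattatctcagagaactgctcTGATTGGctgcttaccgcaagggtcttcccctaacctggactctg
H2-DMb2: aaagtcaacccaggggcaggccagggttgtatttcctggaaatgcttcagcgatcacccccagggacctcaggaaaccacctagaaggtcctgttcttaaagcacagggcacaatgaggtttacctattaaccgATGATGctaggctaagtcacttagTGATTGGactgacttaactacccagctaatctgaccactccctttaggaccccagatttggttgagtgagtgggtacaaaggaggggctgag
H2-DMb1: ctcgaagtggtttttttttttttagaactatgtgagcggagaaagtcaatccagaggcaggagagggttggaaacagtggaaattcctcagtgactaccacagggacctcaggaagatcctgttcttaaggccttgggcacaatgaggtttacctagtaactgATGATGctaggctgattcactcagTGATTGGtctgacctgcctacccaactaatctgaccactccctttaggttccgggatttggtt
H2-Ob: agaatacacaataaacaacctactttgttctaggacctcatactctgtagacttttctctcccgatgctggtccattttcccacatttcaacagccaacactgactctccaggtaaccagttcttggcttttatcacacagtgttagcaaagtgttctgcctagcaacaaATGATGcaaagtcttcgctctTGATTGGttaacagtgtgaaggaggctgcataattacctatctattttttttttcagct
H2-Eb1: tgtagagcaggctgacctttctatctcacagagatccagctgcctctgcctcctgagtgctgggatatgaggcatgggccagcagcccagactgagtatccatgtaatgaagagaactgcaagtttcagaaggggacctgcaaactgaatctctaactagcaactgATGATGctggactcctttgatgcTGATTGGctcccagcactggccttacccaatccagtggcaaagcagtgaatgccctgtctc
The H2-DMb2 and H2-DMb1 stretches held an X core 18 bases before a Y core, and their longest run in common was 23 bases. H2-Ob had 15 bases between the cores and H2-Eb1 had 17. In H2-Oa only the Y core was found, 38 bases before the start, and likewise in H2-Aa, which was not called and is not printed, 43 bases before the start. Counted on both strands over the same 250 bases, the Y core stood in 7.23% of all promoters, the X core in 9.39%, and an X core ending at most 40 bases before a Y core, with no overlap, in 18 promoters (0.0548%). The class II genes H2-DMb1, H2-DMb2, H2-Ob and H2-Eb1 made up 4 of these 18. Neither core was found in the windows of H2-DMa, which has more than 1 listed start, or of H2-Q2. Which start the counted H2-DMa transcripts used was not examined. These matches describe exact letters only, and the pair was chosen after the sequences were seen. A box with other letters would be missed, so a core not found does not mean that the promoter lacks the box.

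Of the 38 tested members, 5 were higher in R26-TIR1(F74G) and 0 lower at an adjusted p under 0.05 (DESeq2 Wald test, two-sided, adjusted over all tested genes), where 1.74% of all tested genes were called in either direction and 1.40% were called higher. The 5 were H2-DMa, H2-DMb1, H2-DMb2 and H2-Oa, which encode both chains of H2-DM and the alpha chain of H2-O, and H2-Q2, a class Ib gene of the Q region. The edgeR quasi-likelihood test called 1 member, H2-DMb1, where it called 0.373% of all tested genes. Normalized counts (counts divided by DESeq2 size factors) of the groups did not overlap for 5 members, H2-DMa, H2-DMb1, H2-Oa, H2-Q2 and H2-Q6, where 2.37% of all tested genes did not overlap. The median log2 fold change was -0.03 over the 38 members and 0.00 over all tested genes. By role, the calls were 4 of 8 tested class II members, 0 of 2 classical class I, 1 of 16 class Ib and 0 of 11 loading and regulation members, and H2-Ke6, a dehydrogenase gene that carries an H2- name and makes up the 38, was not called (log2 fold change 0.05). In the dot plot of fold changes by role, the 3 H2-DM genes lie highest, and most class I intervals span 0.

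**Figure D1:**
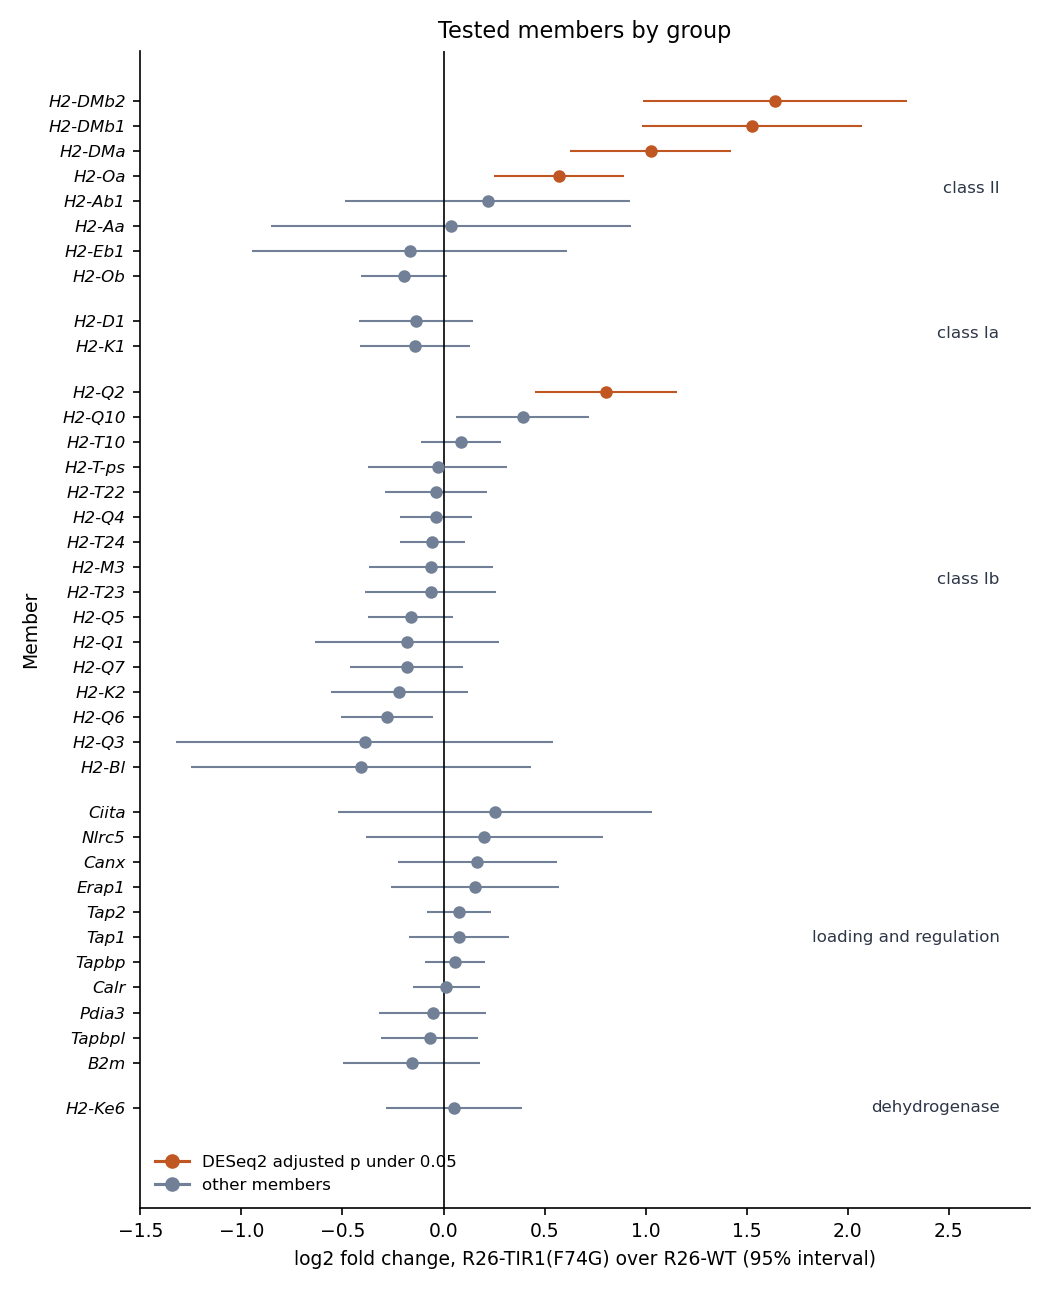
Log2 fold change (R26-TIR1(F74G) over R26-WT, x axis) of the 38 tested members, grouped by role; points are DESeq2 estimates, lines their 95% intervals, and orange marks an adjusted p under 0.05. The 5 orange members lie between 0.57 (H2-Oa) and 1.64 (H2-DMb2), and 20 of the 38 estimates lie below 0.

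Levels between genes were compared per length, as CPM (counts per 1000000 counted pairs) per kilobase of exon. B2m was highest at 5657, followed by H2-D1 at 3135 and H2-K1 at 2664, the light chain and the heavy chains of classical class I. H2-D1 and H2-K1 ranged over 2493 to 3874 and 2014 to 3154 in the 10 libraries, so these neighbours in the order overlapped. The next member, H2-T23, stood at 375.1, and then came the loading factors Pdia3 at 335.1, Tapbp at 286.1 and Calr at 194.2.

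Among class II members, H2-DMa was highest at 52.6, at place 18 of 38, with H2-Ob at 14.5 and H2-Oa at 12.9. H2-DMb2 (2.38) and H2-DMb1 (1.20) were far below their partner chain H2-DMa, and H2-Ab1 (0.577), H2-Eb1 (0.479) and H2-Aa (0.227) were lower still. Ciita was last, at 0.0959. The ranges of H2-Ob and H2-Oa (7.58 to 17.7 for H2-Oa) overlapped, and so did those of each neighbouring pair among the last 7 members.

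**Figure D2:**
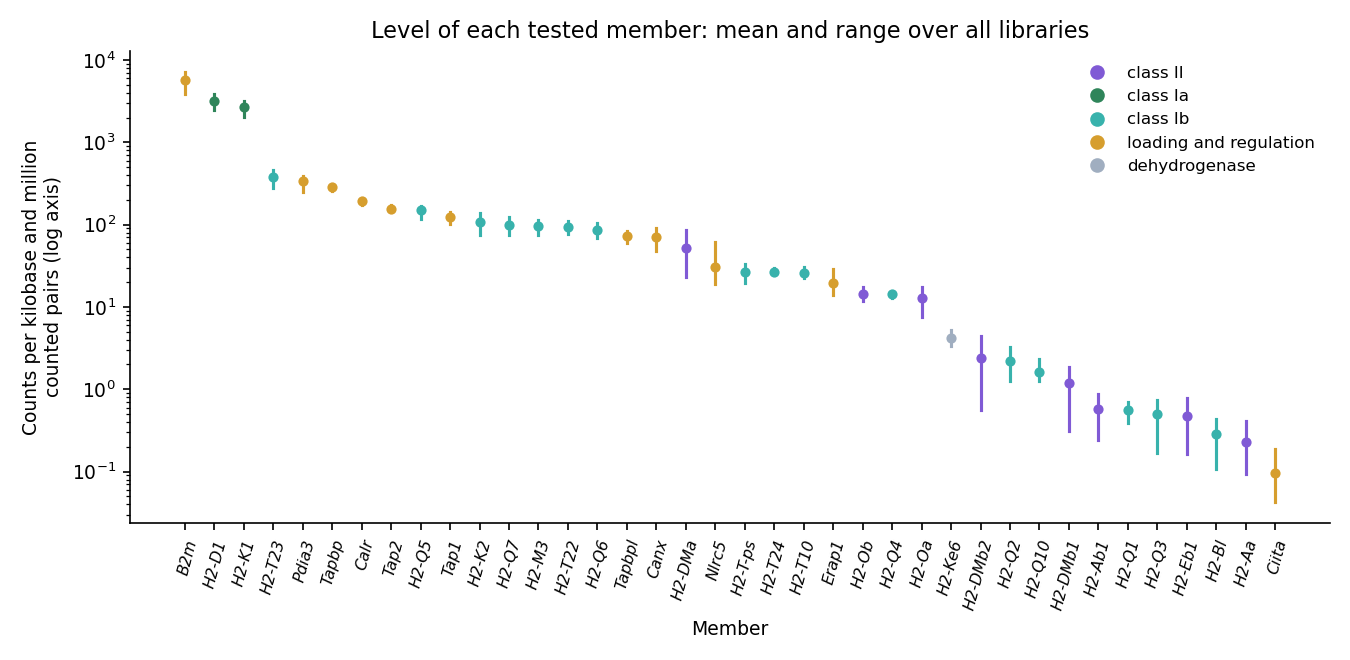
Level of the 38 tested members in CPM per kilobase of exon (y axis, log scale), in descending order along the x axis; points are means and lines the lowest to highest of the 10 libraries, coloured by role. B2m, H2-D1 and H2-K1 stand apart at the top, and Ciita is last at 0.0959.

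H2-DM, the class II peptide exchange factor, was higher in R26-TIR1(F74G) in all of its chains. H2-DMa (chr17:34338515-34358075, build GRCm39), the alpha chain, had normalized counts of 3885, 3537, 6376 and 5628 in R26-WT and of 10351, 12944, 9030, 8066, 10930 and 7947 in R26-TIR1(F74G). Every R26-TIR1(F74G) library lay above every R26-WT library. The means were 4856 ± 1365 (SD, n = 4) and 9878 ± 1922 (SD, n = 6), a 2.03-fold difference (95% interval 1.54 to 2.68) with a DESeq2 adjusted p of 0.000118 and an edgeR adjusted p of 0.0579.

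H2-DMb1 (chr17:34372046-34379204), one of the paired beta chain genes, had 23.1, 29.5, 65.1 and 45.7 normalized counts in R26-WT, and 135.0, 131.5, 109.3, 127.4, 88.7 and 117.2 in R26-TIR1(F74G). The groups did not overlap, with R26-WT library 3 nearest to the others. The difference was 2.88-fold (95% interval 1.98 to 4.20), at adjusted p values of 1.21e-05 by DESeq2 and 0.0446 by edgeR. H2-DMb2 (chr17:34362281-34370529), the other beta chain gene, had 43.0, 64.9, 135.1 and 75.3 in R26-WT against 228.8, 342.0, 343.5, 247.6, 199.0 and 126.7 in R26-TIR1(F74G). Library 10 of R26-TIR1(F74G) fell below library 3 of R26-WT, and the other 5 lay above all R26-WT libraries. The fold difference of H2-DMb2 was 3.11 (95% interval 1.98 to 4.89), with adjusted p values of 0.000176 by DESeq2 and 0.0923 by edgeR.

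The DM transcripts differed in how far they could be told from their neighbours. Of 100-base stretches of H2-DMb1 transcripts, 15.5% were shared with other genes, H2-DMb2 among them, and for H2-DMb2 the share was 8.81%. A pair that maps equally well to both would fall under the mapping quality minimum, so part of each count could be lost and the split between them is uncertain. H2-DMa shares 10.4% of its exon bases with Brd2, which was not called (log2 fold change 0.12, SE 0.20). Raw counts ran from 29 to 135 for H2-DMb1 and from 54 to 371 for H2-DMb2, so counting error weighed more on these than on H2-DMa (3595 to 12604). Without any one library, the DESeq2 adjusted p stayed at or below 0.00458 for H2-DMa, 0.000348 for H2-DMb1 and 0.00373 for H2-DMb2.

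H2-O, which restrains H2-DM, was higher in its alpha chain gene by DESeq2, while its beta chain gene had a lower mean and was not called. H2-Oa (chr17:34311314-34314208) had 551.8, 471.3, 794.3 and 624.1 normalized counts in R26-WT and 820.3, 850.3, 828.6, 1021, 1070 and 859.4 in R26-TIR1(F74G). The groups did not overlap, but R26-WT library 3 came close to the lowest of the others. The difference was 1.49-fold (95% interval 1.19 to 1.86), with adjusted p values of 0.033 by DESeq2 and 0.234 by edgeR. The DESeq2 call of H2-Oa was lost in 7 of the 10 fits that each left out 1 library (libraries 1, 2 and 4 of R26-WT and 6, 8, 9 and 10 of R26-TIR1(F74G)), with adjusted p up to 0.207 and the other 4 calls held in all 10 of these fits. Its exon bases overlap BC051537 over 22.8%, and BC051537 itself had an estimate of 0.81 ± 0.39 (SE) on the log2 scale (adjusted p 0.634 by DESeq2).

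H2-Ob (chr17:34457877-34473388) had 4115, 3709, 3640 and 3216 in R26-WT, and 2709, 3217, 3452, 3315, 3289 and 3262 in R26-TIR1(F74G). The ranges overlapped, and the log2 fold change was -0.19 (SE 0.11, DESeq2 adjusted p 0.884). Per kilobase, the ratio of H2-DMa to H2-Ob was 1.47 to 2.73 in R26-WT and 3.80 to 6.28 in R26-TIR1(F74G). The ratio of H2-Oa to H2-Ob was 0.486 to 0.835 and 0.918 to 1.24. Neither of these ratios to H2-Ob overlapped between the groups, but the normalized counts of H2-DMa and H2-Oa alone did not either. H2-Ob also had the lower mean in R26-TIR1(F74G), so dividing by it widens the gap. The ratios were not tested, and the share of other gene pairs without overlap was not computed. The ratio of H2-DMa to H2-Oa (2.87 to 3.68 and 3.22 to 6.21), that of H2-DMa to H2-DMb1 (47.7 to 82.0 and 30.9 to 60.1) and that of H2-DMb2 to H2-DMb1 (1.59 to 2.12 and 1.04 to 3.03) did overlap.

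The classical class II genes had low counts in both groups. H2-Aa, the I-A alpha chain, had 19.5 to 50.7 normalized counts in R26-WT (median 38.7) and 15.7 to 67.8 in R26-TIR1(F74G) (median 30.8). H2-Ab1, its beta chain, had 27.1 to 92.2 (median 57.3) and 42.6 to 96.3 (median 66.4), and H2-Eb1, the I-E beta chain, 27.5 to 57.5 (median 43.1) and 13.9 to 65.4 (median 37.4). All 3 overlapped between the groups. Their 95% fold intervals were wide, 0.553 to 1.90 for H2-Aa, 0.714 to 1.90 for H2-Ab1 and 0.519 to 1.53 for H2-Eb1. The estimate of H2-DMa (2.03) lay outside all 3 intervals, and that of H2-Oa (1.49) lay inside them. The interval of H2-DMa itself (1.54 to 2.68) overlapped those of H2-Aa and H2-Ab1.

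Ciita, the class II transactivator, had 26.3, 60.0, 17.9 and 38.9 normalized counts in R26-WT and 77.0, 25.7, 40.7, 30.1, 34.6 and 46.0 in R26-TIR1(F74G). The groups overlapped, and the fold interval of 0.697 to 2.04 held a change of the size of H2-DMa, at raw counts of 17 to 69. Cd74, the invariant chain that H2-DM acts on through its fragment, had 2165 to 3501 in R26-WT and 2045 to 3037 in R26-TIR1(F74G), a log2 difference of -0.18 (SE 0.17), and was not called. H2-Ea had a count of 0 in all libraries, which allows at most 0.00672 CPM (3 counts over all libraries, for counting error alone). H2-Pa, H2-Pb and H2-Eb2 had normalized counts of at most 3.24 in any library.

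**Figure D3:**
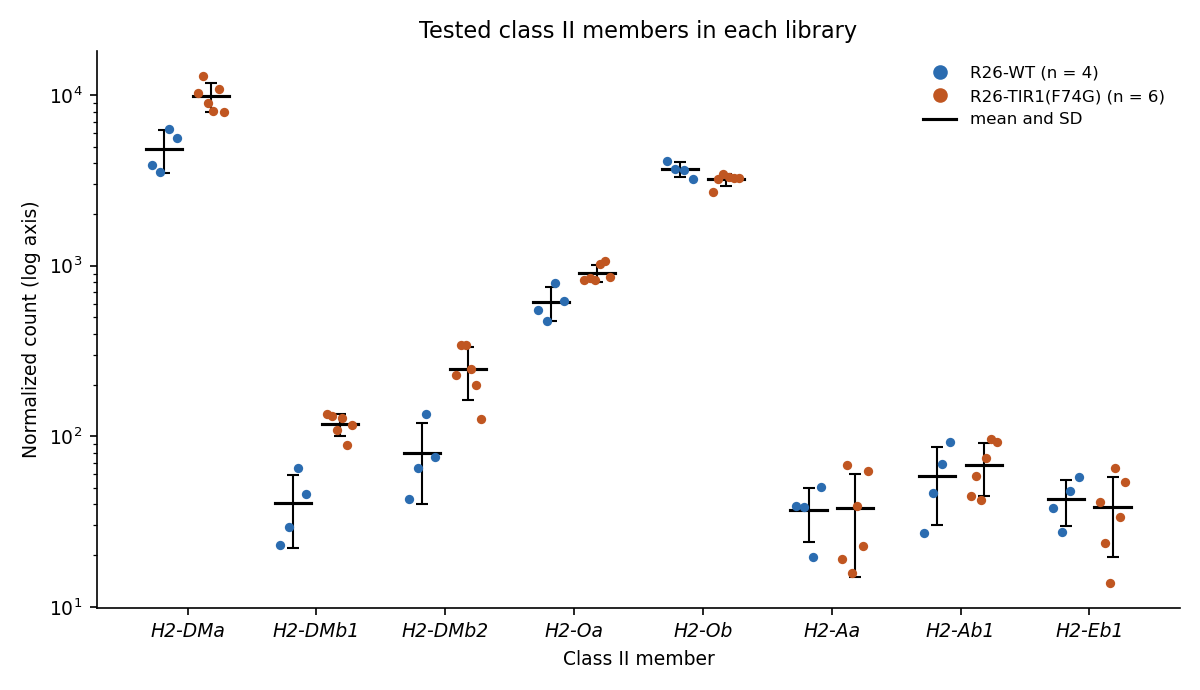
Normalized counts (y axis, log scale) of the 8 tested class II members in each library; points are libraries, black lines the mean and SD of each group. H2-DMa, H2-DMb1 and H2-Oa do not overlap between the groups, H2-DMb2 overlaps by 1 library, and H2-Ob, H2-Aa, H2-Ab1 and H2-Eb1 overlap.

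The called class II genes are neighbours on the chromosome. Of 23 tested genes from H2-K1 to H2-Eb1, 4 were called, all higher, where 1.40% of all tested genes were called higher. They lay within 6 tested genes from H2-Oa to H2-DMb1 (67.9 kb), a run whose ends were set by the called genes after the calls were seen. The run also holds Brd2, a bromodomain regulator of transcription, and Gm50335 (log2 fold change 0.39, SE 0.19, DESeq2 adjusted p 0.647), neither of which was called. The next tested genes along the chromosome are Psmb9, Tap1, Psmb8 and Tap2, which serve class I, and their log2 fold changes were 0.01, 0.08, -0.05 and 0.08. Gm15821 (0.11), H2-Ob, H2-Ab1, H2-Aa and H2-Eb1 follow. None of these 5 was called.

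**Figure D4:**
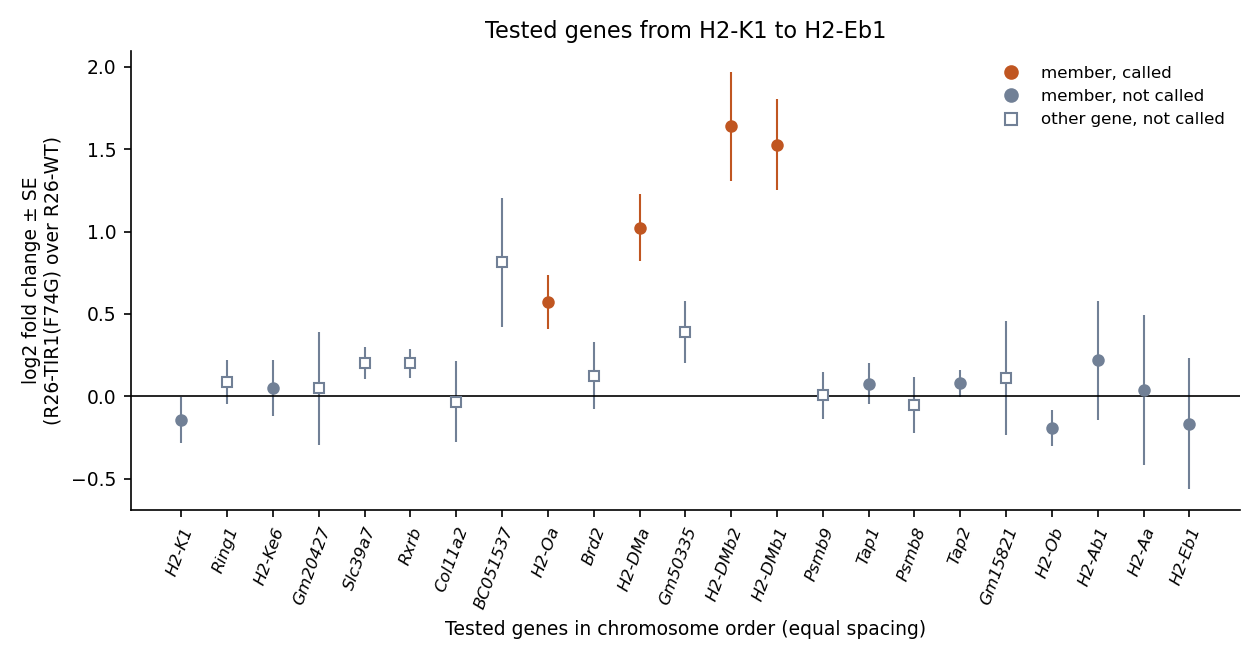
Log2 fold change with its SE (y axis) of the 23 tested genes from H2-K1 to H2-Eb1, evenly spaced in chromosome order (x axis); circles are members, squares other genes, and orange marks an adjusted p under 0.05. The 4 orange genes, H2-Oa, H2-DMa, H2-DMb2 and H2-DMb1, lie within a run of 6.

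Markers of other cells were examined because B cells, dendritic cells and macrophages express class II. The study's methods describe a sort on CD4, TCRβ and ZsGreen, while the labels name no gate for these libraries. In bulk samples, fewer cells of a type and less RNA per cell cannot be told apart. Of 9 B cell markers, Ms4a1, Pax5, Ebf1, Blk and Fcer2a had mean counts under 10. The summed B cell list, mostly Cd79a and Cd79b, was 880 to 1413 normalized counts in R26-WT and 781 to 1477 in R26-TIR1(F74G), and 1 of its 4 tested genes was called. Cd79b, a chain of the B cell receptor complex at a mean of 13.1 CPM per kilobase, near the level of H2-Oa, had 661.2 to 1091 normalized counts in R26-WT and 525.0 to 972.3 in R26-TIR1(F74G). Its log2 fold change was -0.33, that of Cd79a -0.24 and that of Cr2 -0.50, and none of these was called. The called gene was Cd22, a lectin receptor, with 5.07 to 15.5 in R26-WT and 23.6 to 272.5 in R26-TIR1(F74G) (DESeq2 adjusted p 0.00266, edgeR 0.23), which did not overlap. Its log2 fold change was 2.68, and 1.69 without library 9, the highest (adjusted p 0.00271). With 1 library left out, DESeq2 gave it an adjusted p in 4 of 10 fits, all called, and none in the other 6 or with the length trend removed.

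Of 8 dendritic cell markers, 7 had mean counts under 10, and Itgax, Clec9a and Cd209a were at 0 throughout. The list summed to 93.5 to 168.5 in R26-WT and 74.3 to 174.5 in R26-TIR1(F74G). The macrophage, monocyte and neutrophil list (8 genes, 5 under a mean count of 10, S100a9 at 0) summed to 74.4 to 121.3 and 77.3 to 151.8, the plasma cell list (4 genes, 3 under, Tnfrsf17 at 0) to 283.3 to 456.5 and 350.4 to 830.5, nearly all of it Prdm1, and the CD8 and NK cell list (6 genes, 1 under, Ncr1 at 0) to 1865 to 2560 and 1403 to 2269. No gene of these lists was called with all libraries. Nkg7 of the CD8 and NK cell list (log2 fold change -0.48) was called in 1 of the 10 fits that each left out 1 library (DESeq2 adjusted p 0.00812). Prdm1, which encodes Blimp-1 and is also expressed by effector Treg cells, had 282.4 to 433.9 in R26-WT and 346.1 to 820.3 in R26-TIR1(F74G) (log2 fold change 0.50, DESeq2 adjusted p 0.592). The part of other cells in the class II result beyond these values was not tested. All 8 Treg markers were detected in every library and 0 were called by DESeq2 with genotype alone, among them Foxp3, with 6816 to 11779 normalized counts in R26-WT and 6778 to 16059 in R26-TIR1(F74G). Degradation acts on the protein, so this transcript does not check the labels.

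Classical class I transcripts did not pass the test. H2-K1 (chr17:34214991-34219321) had 319706, 314768, 402809 and 402642 normalized counts in R26-WT and 304135, 358861, 260021, 320100, 382326 and 332799 in R26-TIR1(F74G). H2-D1 (chr17:35481706-35486475) had 324957, 302195, 435708 and 421111 in R26-WT, and 321128, 368785, 282609, 332758, 382221 and 338328 in R26-TIR1(F74G). Within both groups the libraries ranked much alike for these genes, with R26-WT libraries 3 and 4 high and R26-TIR1(F74G) library 7 lowest of all. The fold was 0.907 for H2-K1 (95% interval 0.750 to 1.10) and 0.910 for H2-D1 (0.749 to 1.11), so a rise of the size of any of the 5 called members lay outside both intervals.

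B2m (chr2:121978167-121983564), the shared light chain, had 194139, 179051, 266618 and 260837 in R26-WT and 192843, 231726, 146544, 190786, 239317 and 209818 in R26-TIR1(F74G). The same libraries were high and low as for the heavy chains. Its fold was 0.896 (95% interval 0.708 to 1.13). Per kilobase, the ratio of B2m to H2-K1 stayed within 1.93 to 2.26 over all 10 libraries and that of H2-K1 to H2-D1 within 0.808 to 0.914, a narrower spread than that of the genes themselves.

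Class Ib genes encode less polymorphic class I chains, some of which present to natural killer or unconventional T cells. H2-Q2 (chr17:35561218-35565738) was the 1 called gene among 16 tested. It had 148.9, 146.6, 159.5 and 120.9 normalized counts in R26-WT and 260.0, 233.1, 310.2, 229.9, 289.8 and 184.0 in R26-TIR1(F74G). The groups did not overlap, with library 10 nearest to R26-WT. The difference was 1.75-fold (95% interval 1.37 to 2.22), with adjusted p values of 0.00103 by DESeq2 and 0.0862 by edgeR, and DESeq2 kept the call without any one library (highest adjusted p 0.0203).

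No other Q region gene was called by DESeq2 with genotype alone. H2-Q1, with which 3.71% of the H2-Q2 stretches are shared, had a log2 fold change of -0.18 (SE 0.23). The more abundant H2-Q5, H2-Q6 and H2-Q7 had -0.16 (SE 0.11), -0.28 (SE 0.12) and -0.18 (SE 0.14). H2-Q7, one of the genes for the secreted or lipid-anchored Qa-2 antigen, had 16728 to 23189 in R26-WT and 14106 to 19097 in R26-TIR1(F74G), which overlapped. H2-Q6, close kin to H2-Q7, had 8371 to 9501 in R26-WT and 6219 to 8250 in R26-TIR1(F74G), which did not overlap, but its DESeq2 adjusted p was 0.378 (0.0154 before adjustment), and 0.0441 with each library's length slope as a covariate.

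H2-Q10, whose product is secreted, had 245.0 to 272.3 in R26-WT and 259.2 to 436.7 in R26-TIR1(F74G), a log2 difference of 0.39 ± 0.17 (SE), at an adjusted p of 0.431 by DESeq2. H2-Q1, H2-Q6 and H2-Q10, like H2-Aa and H2-Eb1 among the class II members, fall outside the naming rule and were named after their values were seen. The Q genes resemble each other: 12.3% of the H2-Q7 stretches and 14.0% of those of H2-Q6 stood in transcripts of other genes, so how reads were divided among them is uncertain.

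Outside the Q region no class Ib member was called. H2-T23, which encodes Qa-1, the ligand of CD94/NKG2 receptors, had 39206 to 58176 in R26-WT (median 47817) and 35737 to 57058 in R26-TIR1(F74G) (median 45927). Its fold was 0.958 (95% interval 0.765 to 1.20). H2-T22, a ligand of certain γδ T cells, had a fold of 0.975 (0.818 to 1.16), with 24.4% of its stretches shared and 29.6% of its exon bases overlapped by another gene. H2-M3, which presents N-formyl peptides, had a fold of 0.958 (0.775 to 1.18), and H2-K2 0.859 (0.680 to 1.09). Of 16 tested class Ib genes, 13 had estimates below 0, with a median log2 fold change of -0.06, and 14 class Ib members were too low to test, 8 of them with a count of 0 in all libraries. The highest normalized count of any untested member was 15.6, for H2-T3, the thymus leukaemia antigen gene, in library 5.

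None of the 11 members that load or regulate MHC molecules was called, and 8 of them had estimates above 0 (median log2 fold change 0.08). Of the peptide transporter chains, Tap1 had 24349 to 31553 normalized counts in R26-WT and 25542 to 34026 in R26-TIR1(F74G), and Tap2 had 23506 to 26730 and 23949 to 27725. The folds were 1.05 (95% interval 0.889 to 1.25) for Tap1 and 1.06 (0.945 to 1.18) for Tap2. Tapbp, which encodes tapasin, the bridge between TAP and class I, had 40960 to 45744 and 43099 to 48492, with a fold of 1.04 (0.937 to 1.15). Its relative Tapbpl, a peptide editor, had a fold of 0.954 (0.808 to 1.13). Tapbp shares 33.1% of its exon bases with Gm19412 and Zbtb22, and pairs that overlap several genes were left out of its count.

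The chaperones and disulfide isomerase of the loading complex were also not called. Calr, calreticulin, had 23164 to 25317 in R26-WT and 21647 to 26194 in R26-TIR1(F74G), a fold of 1.01 (95% interval 0.900 to 1.13). Pdia3, ERp57, had a fold of 0.964 (0.803 to 1.16). Canx, calnexin, had 15106, 17723, 9889 and 10369 in R26-WT and 14351, 12783, 18586, 15502, 11344 and 16838 in R26-TIR1(F74G), so the R26-WT libraries split into a higher and a lower pair. Its fold was 1.12 (0.855 to 1.47).

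Erap1, the aminopeptidase that trims class I peptides, showed the same order, with 6688, 7677, 4475 and 4492 in R26-WT and 4833 to 9326 in R26-TIR1(F74G), and a fold of 1.11 (95% interval 0.834 to 1.49). Nlrc5, the class I transactivator, had 11213, 15752, 7015 and 7914 in R26-WT and 12032, 8355, 22661, 9997, 8840 and 10382 in R26-TIR1(F74G). Library 7 held the highest count and the other 5 lay within the R26-WT range. The fold of 1.15 had a wide interval (0.766 to 1.73), and without library 7 the log2 fold change was -0.08 in place of 0.20. It was 0.115 with the trend on gene length removed and 0.0135 with each library's length slope as a covariate.

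The members differed in their spread over the 10 libraries. The coefficient of variation was 4.94% for Tapbp, 5.61% for Calr and 5.80% for Tap2, and 40.9% for Nlrc5, and it was 60.7% for H2-DMb2, where it includes the difference between the groups. B2m, H2-K1, H2-D1, H2-T23 and H2-M3 were high in R26-WT libraries 3 and 4 and low in library 7, and Nlrc5, Canx and Erap1 were the reverse. These libraries also differed in how counts depended on transcript length. The slope of log2 count on the doubling of length, relative to the average library, was -0.10 and -0.08 in R26-WT libraries 3 and 4, 0.04 and 0.08 in R26-WT libraries 1 and 2, 0.12 in library 7, and -0.06 to 0.03 in the other R26-TIR1(F74G) libraries. The part of this slope in the differences between libraries was not tested beyond the fits with it removed.

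With the trend on gene length removed, the same 5 members were called. With each library's length slope as a covariate in DESeq2, a fit chosen after the data were seen, the same 5 were called higher and H2-Q6 lower (log2 fold change -0.26, adjusted p 0.0441), where 742 of all tested genes were called. Of the 8 Treg markers, Il2ra (-0.39, adjusted p 1.09e-09) and Cd4 (0.20, adjusted p 0.0204) were also called in that DESeq2 fit. H2-DMa was then at 1.15 and H2-DMb1 at 1.68 on the log2 scale. R26-WT libraries 3 and 4 held the higher H2-DMa and H2-DMb1 counts of their group as well as the negative slopes.

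**Figure D5:**
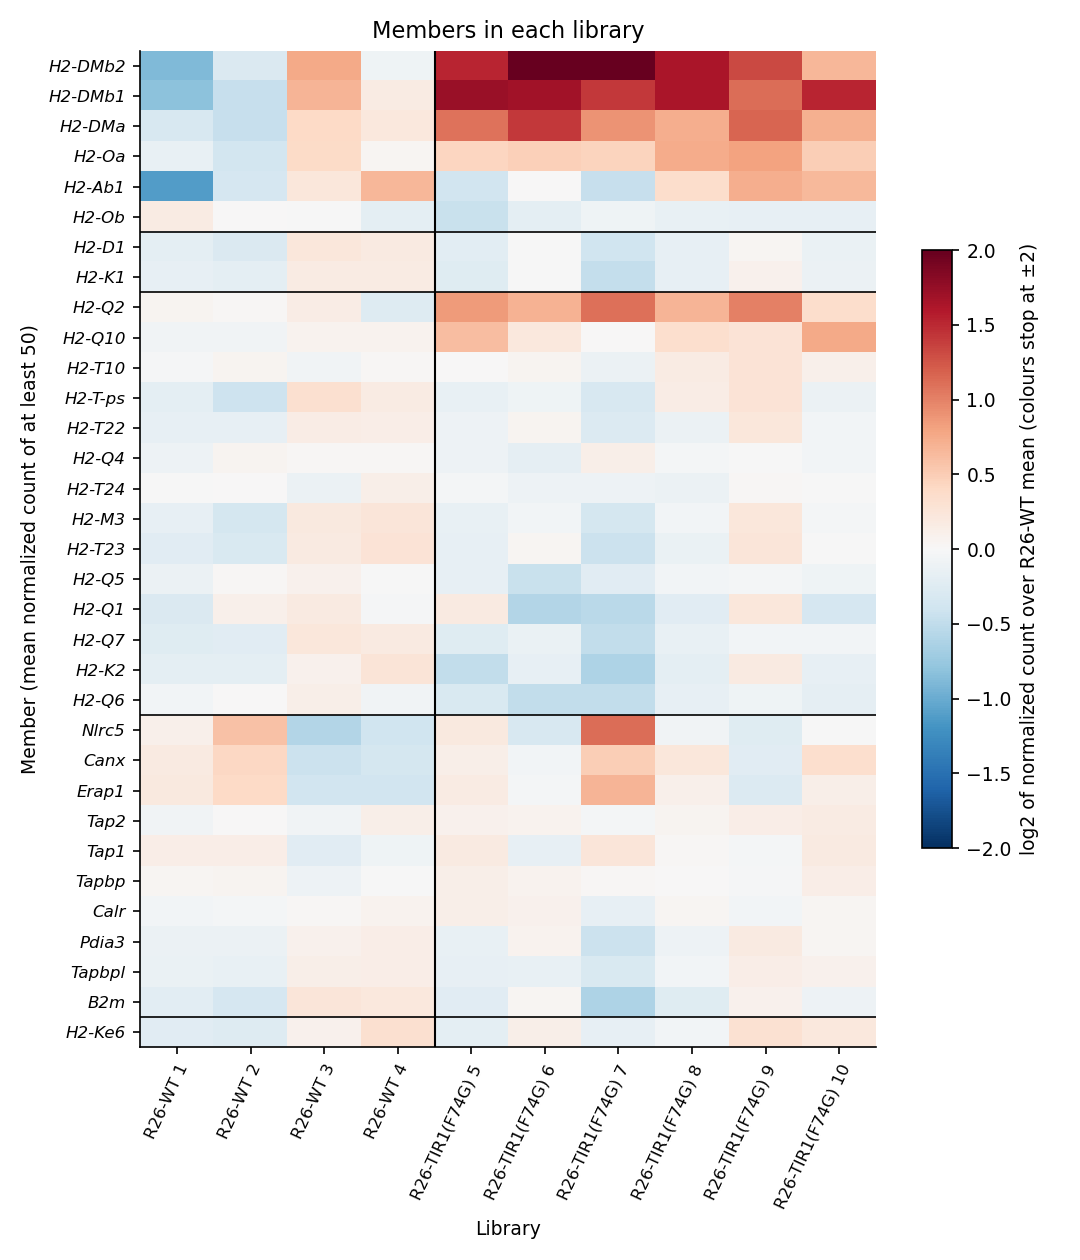
Log2 ratio of each normalized count to the R26-WT mean (colour) for the 33 tested members with a mean normalized count of at least 50 (rows, by role) in the 10 libraries (columns; the line parts R26-WT from R26-TIR1(F74G)). H2-DMb2, H2-DMb1, H2-DMa, H2-Oa and H2-Q2 are red throughout R26-TIR1(F74G), while Nlrc5, Canx and Erap1 are highest in library 7, where B2m, H2-K1 and H2-D1 are lowest.

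The other genes of antigen processing were taken from a list of 39, of which 37 were tested and Marchf1 and Marchf8, ubiquitin ligases of MHC molecules, were too low. DESeq2 called 0 and edgeR 0. Unadjusted p was under 0.05 for 2 by DESeq2, Ctsl (cathepsin L, log2 fold change -0.47) and Fcgrt (the neonatal Fc receptor, 0.51), and for 1 by edgeR, where 1122 of the 16363 tested genes were under it by DESeq2 and 1016 by edgeR. The list's median log2 fold change was -0.01.

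By step of the pathway, the 5 genes of the immunoproteasome and its activator lay between -0.05 and 0.01 on the log2 scale. Psmb8, an immunoproteasome subunit, had 24107 to 33867 normalized counts in R26-WT and 20948 to 33740 in R26-TIR1(F74G). The 7 genes of the class II chaperone and endosomal processing had a median of -0.18, and among them Ctss, cathepsin S, which cuts the invariant chain, had 15382 to 23328 and 12400 to 18623 (log2 fold change -0.24, SE 0.16). The 7 class II regulators, subunits of RFX, CREB1 and NF-Y, which bind X and Y boxes, had a median of -0.04 and a range of -0.12 to 0.17.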

How the data were processed

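Raw counts of read pairs per gene name were deposited by the authors, 1 file per library and not normalized. The file headers name featureCounts 2.1.1 and the GENCODE M30 annotation (build GRCm39), and options that keep primary alignments with both mates mapped to 1 chromosome at a mapping quality of at least 30. The header gives no strand option. Pairs that overlap several genes or map to several places were therefore left out, which lowers the counts of overlapping and closely related genes. The submitters' processing notes name Bowtie2 and the study's methods STAR, so the aligner of these files is uncertain. Per the labels, small amounts of RNA were amplified by PCR and no molecular identifiers are named, so counting error is a lower limit. All 37 mitochondrial gene rows had a count of 0.

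A mean count minimum of 10 left 16363 genes, tested with DESeq2 1.42.0 in R 4.3.3 (Wald test, two-sided, with genotype alone in the model and a Benjamini-Hochberg adjustment over all of them, called under 0.05, after the study's methods), and 95% intervals are from its standard errors. Alternatives were edgeR 4.0.16 (quasi-likelihood), limma 3.58.1 (voom with sample quality weights), TMM factors, no count filter, an added minimum size of 1 on the log2 scale, each library left out, and the trend on gene length removed. Removing a trend on length and GC content, and a length slope covariate, were added after the data were seen. The scripts were tested on simulated data. Named members are the 11 not named H2-, all called members, and in each of 3 H2- groups (classical class I, class Ib and class II, which leave out H2-Ke6) the 6 tested members with the highest level per kilobase. Other named members were added after their values were seen. Of the other antigen processing genes, those called were to be named (0), with Cd74, Ctss and Psmb8. The members and lists were chosen with earlier results of these data known. Shared stretches are 100-base runs of GENCODE transcripts also present in another gene's transcripts. 1 marker of the B cell list is not reported here and was left out of its sums.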

Additional observations from a re-analysis of the deposited data

Results flagged for a closer look

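For the 38 tested members, the total counts and the members' share of counts, the 80 sets of values by group were searched for a sample far from the rest, and 2 had one, where chance gives about 1 in 20 (4 of 80). In Nlrc5, R26-TIR1(F74G) library 7 had 22661 normalized counts, and the nearest other library of the group had 12032. In H2-Ob, R26-TIR1(F74G) library 5 had 2709 normalized counts, below the nearest at 3217. Library 7 also had the highest length slope (0.12), and the log2 fold change of Nlrc5 was 0.202 with genotype alone, 0.115 with the length trend removed and 0.0135 with the length slope as a covariate.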

How the results depend on the processing

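The count of 5 members called higher held under TMM factors, without a count filter and with the length trend, or the length and GC trends, removed, and each of these fits called the same 5 genes. It fell to 1 member (H2-DMb1) by edgeR and by limma voom, and to 3 (H2-DMa, H2-DMb1 and H2-DMb2) where a size of 1 or more on the log2 scale was also asked. The share of all tested genes that passed this added size was not computed, so these 3 have no background beside them. Leaving out 1 library gave 4 to 5 called members, and 187 to 346 of all tested genes, the fewest without R26-WT library 4, against 284 with all libraries. Of all tested genes, edgeR called 61, voom 80 and the length slope covariate 742, and the cause was not tested. By edgeR and voom, the log2 fold changes of H2-Oa (0.56 and 0.53), H2-DMa (1.02 and 0.92), H2-DMb2 (1.63 and 1.53) and H2-Q2 (0.80 and 0.73) kept their direction and missed the threshold.

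Of 493 values of 29 named genes under the alternatives, 457 kept direction and side of the threshold, 15 kept direction but lost the call and 21 changed sign, all 21 in genes that were not called. Over the fits that each left out 1 library, the log2 fold change of Pdia3 ran from -0.102 to 0.0129, Calr from -0.0062 to 0.0466, Nlrc5 from -0.0784 to 0.468, H2-Ab1 from -0.0228 to 0.528, H2-T23 from -0.149 to 0.0412, H2-T22 from -0.0917 to 0.0202, H2-M3 from -0.162 to 0.0311 and Psmb8 from -0.129 to 0.035. With the length slope covariate H2-T23 stood at 0.0281, H2-T22 at 0.0214, H2-M3 at 0.0253 and Psmb8 at 0.0395, and with length and GC trends removed Tap1 at -0.00903. No paired analysis was possible because no replicate number occurs in both groups. Raw counts of Ciita, H2-Aa, H2-Ab1, H2-Eb1, H2-Q1, H2-Q3 and H2-Bl ran from 5 to 109, against 29 to 135 for the called H2-DMb1, and whether more depth would change their calls was not tested. The 18 members under the count filter were not tested.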
